A study of Mus musculus with 4 samples.

Results

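The histone acylation machinery, a set of 40 genes, was examined in mouse blood progenitors transformed by MLL-ENL ∆YEATS or by MLL-ENL, as the enzymes that write acyl marks on histone lysines, the proteins that read them and the enzymes that remove them. The members were picked by gene symbol from a fixed list of acetyltransferases, bromodomain and YEATS readers, deacetylases and sirtuins, and the rule itself uses no measured value. All 40 symbols were found among the 55426 genes of the table: 9 writers, 12 readers and 19 erasers. The MLL-ENL ∆YEATS group held 2 libraries from cells carrying an MLL fusion with residues 372 to 559 of ENL, which lacks the YEATS domain at the start of that protein. The MLL-ENL group held 2 libraries from cells carrying the MLL-ENL fusion, whose ENL residues are not given in the labels. Both are lines of transformed hematopoietic stem and progenitor cells (HSPCs) from lineage-negative bone marrow, grown in IMEM with serum, and polyadenylated RNA was sequenced. Per the design text, replicates within a line are technical, so the SDs and p-values below measure only the spread between libraries, and fusion genotype and cell line cannot be told apart.

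Writers move an acetyl or longer acyl group from its coenzyme A carrier onto histone lysines, which loosens chromatin and creates docking sites. Readers bind those lysines through bromodomains, double PHD fingers or a YEATS domain; the YEATS domain of ENL itself is such a module, and ENL fusions recruit elongation factors to HOX genes in leukemia. Erasers are the zinc-dependent deacetylases, many of which work inside corepressor complexes, and the sirtuins, which use NAD. The corepressor scaffold Ncor1 was counted with the erasers here, and the chromodomain protein Cdyl with the readers.

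The labelled cell type was checked against marker genes. Among 9 lineage markers, 4 (Cd3e, Cd4, Cd8a and Ms4a1) were at 0 in all 4 libraries and, leaving out Itgam, no marker passed 1.05 CPM (counts scaled to library size). Itgam, a myeloid integrin, stood at 388 and 382 CPM in MLL-ENL ∆YEATS and at 212 and 359 CPM in MLL-ENL. The lineage-negative label names the starting bone marrow, and the lines themselves carried RNA of this lineage marker. Of 8 progenitor and myeloid markers, 3 were lower in MLL-ENL ∆YEATS by edgeR's quasi-likelihood test (Kit, Mpo and Meis1), 1 was higher (Spi1), Ptprc and Hoxa9 were not called, and Cd34 and Flt3 were too low to test. Kit, a stem cell factor receptor, had 2.62 and 3.91 CPM in MLL-ENL ∆YEATS against 50.4 and 66.9 CPM in MLL-ENL, and Mpo, a granule enzyme, had 59.4 and 62.4 CPM in MLL-ENL ∆YEATS against 594 and 466 CPM in MLL-ENL. Spi1, a myeloid transcription factor, had 244 and 241 CPM in MLL-ENL ∆YEATS against 168 and 183 CPM in MLL-ENL (log2 fold change 0.46, adjusted p = 0.0404). Hoxa9, a fusion target, had 255 and 263 CPM in MLL-ENL ∆YEATS against 267 and 269 CPM in MLL-ENL (adjusted p = 0.766). The part of such differences in cell state in the results on the 40 genes was not tested. In RNA from whole cultures, fewer cells of a type and less RNA per cell cannot be told apart.

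Total counts lay between 27812855 and 28814798 per library. The 2 MLL-ENL libraries differed from each other more than the 2 MLL-ENL ∆YEATS libraries did: the median absolute log2 ratio within the pair over the members was 0.0382 in MLL-ENL ∆YEATS and 0.244 in MLL-ENL. Values without 1 MLL-ENL library are given beside each member whose direction turned with it, and beside several others for which these libraries were far apart.

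Most members did not pass the test between the lines. By edgeR's quasi-likelihood test at an adjusted p under 0.05, 2 members rose in MLL-ENL ∆YEATS (Kat6b and Hdac4), 3 fell (Hdac7, Sirt7 and Hdac8) and 35 did not pass. That is 12.5% of the members, against 16.9% of all 13245 genes tested (7.04% higher and 9.84% lower), so the share called among the members lay below the share over all genes. The median log2 fold change was 0.07 over the members and -0.01 over all genes, and the median absolute log2 fold change was 0.24 over the members and 0.29 over all genes. The 2 groups of libraries did not overlap in CPM for 29 members, 17 higher and 12 lower in MLL-ENL ∆YEATS. Non-overlap was found for 64.3% of all genes tested, 32.1% higher and 32.2% lower.

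By class, 11.1% of writers, 0% of readers and 21.1% of erasers were called, against 16.9% of all genes tested. In classes this small, 1 call moves the share by several points. Among writers, 1 of 9 rose and none fell, with 7 positive fold changes and a median log2 fold change of 0.22. Among readers, none of 12 passed the test in either direction in edgeR or DESeq2 (18.2% of all genes called by DESeq2), although 3 had an unadjusted p under 0.05, and the median was 0.11. Among erasers, 1 of 19 rose and 3 fell, with a median of -0.04. No test of the difference between classes was made, and the writers' median rested on the MLL-ENL libraries: leaving out MLL-ENL replicate 1 gave 0.021, and leaving out replicate 2 gave 0.44. With either of these libraries out, 22 and 28 members were called, beside 54.7% and 66.5% of all genes. With MLL-ENL ∆YEATS replicate 1 or 2 out, 2 and 1 were called, beside 10.3% and 10.2%.

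**Figure D1:**
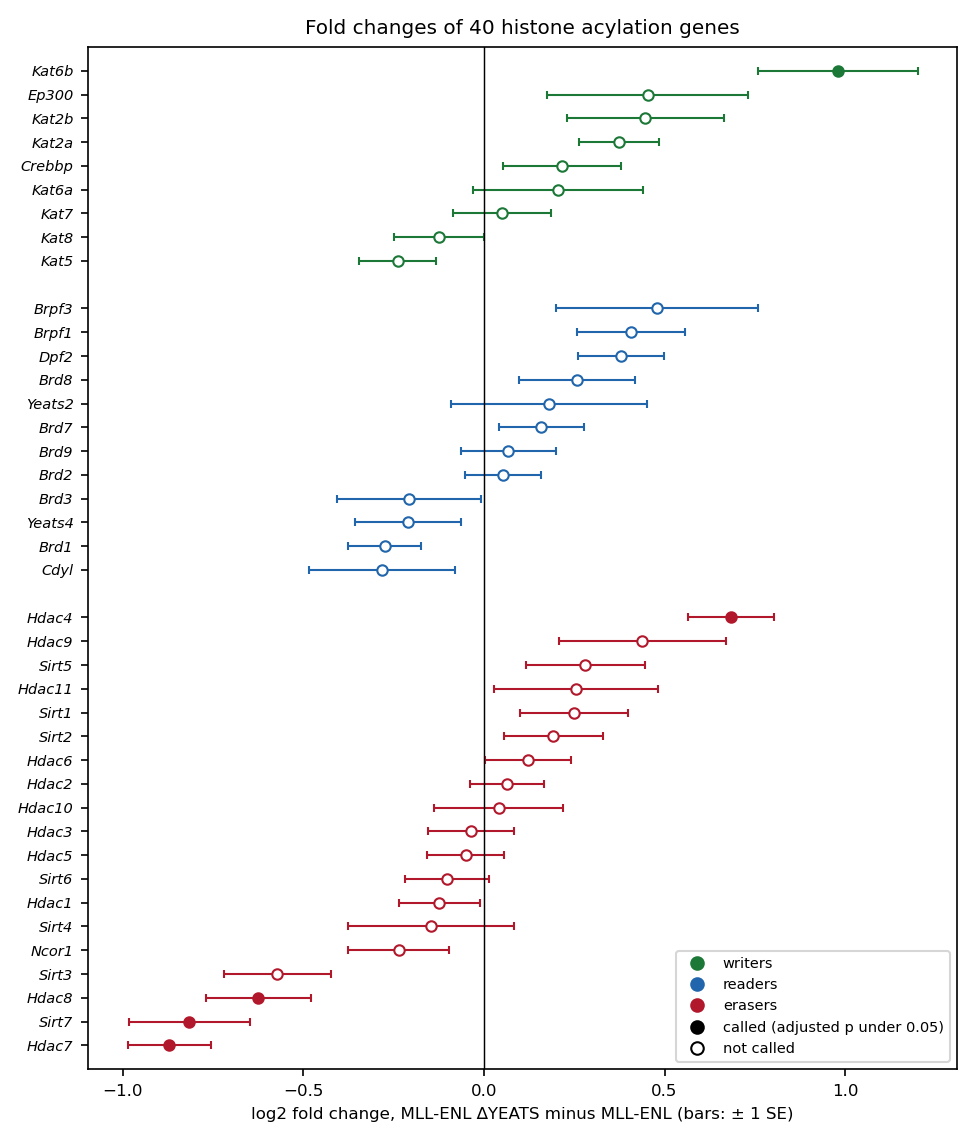
Log2 fold change of each of the 40 genes, MLL-ENL ∆YEATS minus MLL-ENL, with bars of 1 SE (edgeR, 2 libraries a group); filled points passed an adjusted p under 0.05. Filled points are Kat6b among the writers, none among the readers, and Hdac4, Hdac7, Sirt7 and Hdac8 among the erasers.

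Promoter sequence is shown for called members because the MLL part of both fusions carries a CXXC domain, which binds DNA at unmethylated CpG. Called members whose window holds annotated exon bases (Sirt7 and Hdac8) are not printed. The 250 bases before the most upstream RefSeq transcription start (GRCm38.p6) are printed 5′ to 3′ on the gene's strand for Kat6b, Hdac4 and Hdac7, with each CpG in capitals. Kat6b lies at chr14:21499520-21499769 on the plus strand, Hdac4 at chr1:92180342-92180591 on the minus strand, and Hdac7 at chr15:97844503-97844752 on the minus strand.
Kat6b: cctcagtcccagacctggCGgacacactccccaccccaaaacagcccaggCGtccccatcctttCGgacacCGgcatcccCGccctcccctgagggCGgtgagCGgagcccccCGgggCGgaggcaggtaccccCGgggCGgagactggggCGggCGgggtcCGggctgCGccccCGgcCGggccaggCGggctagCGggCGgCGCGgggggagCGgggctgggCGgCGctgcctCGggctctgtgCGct
Hdac4: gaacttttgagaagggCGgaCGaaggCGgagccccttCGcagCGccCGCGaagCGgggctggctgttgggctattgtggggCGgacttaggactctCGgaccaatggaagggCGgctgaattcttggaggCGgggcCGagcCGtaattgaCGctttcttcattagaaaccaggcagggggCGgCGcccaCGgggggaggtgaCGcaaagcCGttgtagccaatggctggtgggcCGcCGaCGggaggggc
Hdac7: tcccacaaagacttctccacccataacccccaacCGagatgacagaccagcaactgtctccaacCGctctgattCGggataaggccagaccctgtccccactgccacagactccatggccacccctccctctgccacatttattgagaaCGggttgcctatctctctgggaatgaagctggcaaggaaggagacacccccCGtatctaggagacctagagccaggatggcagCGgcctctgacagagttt

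The windows of the 2 genes that rose were dense in CpG, with 27 sites at Kat6b and 23 at Hdac4. The windows of the 3 that fell held fewer, with 6 sites at Hdac7, 12 at Sirt7 and 6 at Hdac8. Those of Sirt7 and Hdac8 run into annotated exons, so their counts are not of upstream sequence alone. The windows of Kat6b and Hdac4 lie inside the annotated spans of these genes. These 5 windows are too few for a comparison by direction, and Hdac7 has 4 starts in the table, of which 1 is shown. Of the 40 members, 35 had a promoter in the table, with a median of 17 CpG (0 to 44) against 6 over all 27025 genes of any type. Readers had a median of 23, writers 13 and erasers 13.5. A GC box (GGGCGG on either strand, which itself holds a CpG) occurred in 21 of 35 members, 60%, against 33.0% of all genes' windows. A CCAAT box (CCAAT on either strand) occurred in 13 members, 37.1%, against 34.5%. The windows over all genes include those of genes too low to test here, whereas every member was tested. These contrasts are therefore not shown to be particular to the members. No methylation or binding was measured at these windows.

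Levels between genes were compared in FPKM, which scales fragment counts by transcript length and depth. The median member had 19.1 FPKM over the 4 libraries, and 25 of 40 were at or above 11.9 FPKM, the median of all genes tested. The order began with Ncor1 (134 FPKM), the scaffold that holds Hdac3 in a corepressor complex, then the SWI/SNF reader Brd7 (114 FPKM), the BET reader Brd2 (107 FPKM) and the deacetylase Hdac1 (104 FPKM). It ended with Hdac10 (4.06 FPKM), Hdac11 (0.95 FPKM) and Hdac9 (0.68 FPKM). Only 4 of the 39 neighbouring pairs in this order had libraries that did not overlap, namely Hdac1 above Hdac2, Yeats4 above Dpf2, Sirt6 above Kat8, and Hdac10 above Hdac11. By class, the median was 14.8 FPKM for writers, 34.7 FPKM for readers and 13.3 FPKM for erasers.

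Summed FPKM per class showed which libraries carried a difference. The writers summed to 205 and 199 FPKM in MLL-ENL ∆YEATS and to 148 and 200 FPKM in MLL-ENL, so the groups overlapped and MLL-ENL replicate 1 was the low library. The readers summed to 563 and 537 FPKM in MLL-ENL ∆YEATS and to 482 and 519 FPKM in MLL-ENL, without overlap. The erasers summed to 561 and 549 FPKM in MLL-ENL ∆YEATS and to 556 and 644 FPKM in MLL-ENL, with overlap. FPKM are scaled by depth alone, whereas CPM also carry a TMM factor per library. That factor was 0.953 for MLL-ENL replicate 1 and between 1.012 and 1.02 for the other libraries. The overlap of the erasers rests on leaving this factor out. The eraser sums include the scaffold Ncor1, at 132 and 122 FPKM in MLL-ENL ∆YEATS and 122 and 159 FPKM in MLL-ENL. Within the erasers, the 7 sirtuins summed to 133 and 138 FPKM in MLL-ENL ∆YEATS and to 171 and 174 FPKM in MLL-ENL. Sirt7, the most abundant of them, had 51.8 and 51.5 FPKM in MLL-ENL ∆YEATS and 99.1 and 84.7 FPKM in MLL-ENL. Of the 7 fold changes, 3 were positive (Sirt1, Sirt2 and Sirt5) and 4 negative, so the sum does not show a fall of the whole family.

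**Figure D2:**
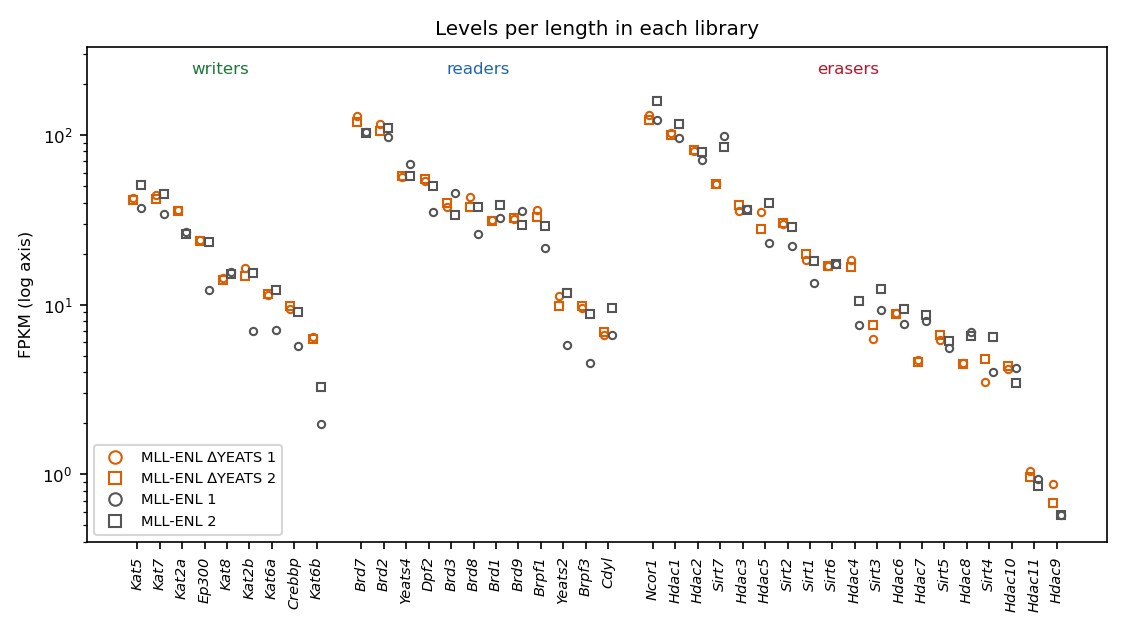
FPKM (log axis) of each gene in each library, by class and in falling order of the mean; orange marks MLL-ENL ∆YEATS and grey MLL-ENL, circles replicate 1 and squares replicate 2. Levels ran from 0.68 FPKM for Hdac9 to 134 FPKM for Ncor1, and the grey circle lies below the grey square for many long writers such as Ep300 and Kat6b.

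The writer with a called change was Kat6b (chr14:21481434-21672478, GRCm38), a MYST acetyltransferase known as MORF that acetylates histone H3 in a complex with BRPF scaffolds. It had 33.9 and 34.1 CPM in MLL-ENL ∆YEATS and 13.4 and 20.98 CPM in MLL-ENL. Both MLL-ENL ∆YEATS libraries were above both MLL-ENL libraries, and the MLL-ENL libraries differed widely. The means were 34.0 ± 0.144 CPM in MLL-ENL ∆YEATS and 17.2 ± 5.33 CPM in MLL-ENL (SD, n = 2 each), a log2 fold change of 0.98 ± 0.22 (SE, adjusted p = 0.0385 by edgeR's quasi-likelihood test). Leaving out MLL-ENL replicate 1 gave a log2 fold change of 0.69, and leaving out replicate 2 gave 1.34. The call was lost when libraries were scaled by their totals alone (adjusted p = 0.0507) or genes under 5 CPM were left out (adjusted p = 0.0518). It was also lost in the limma fit on log2(FPKM + 0.1), where no writer was called. The limma fit on log2(FPKM + 1) without a filter called no member at all. Over all alternatives the Kat6b adjusted p reached 0.143.

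Its closest relative, Kat6a (MOZ), had 98.4 and 100 CPM in MLL-ENL ∆YEATS and 65.5 and 107 CPM in MLL-ENL, with overlapping groups. The Kat6a log2 fold change was 0.21 (adjusted p = 0.587), and it changed sign with the MLL-ENL library left out: -0.10 without replicate 1 and 0.60 without replicate 2. The other MYST enzymes were not called. Kat7 (HBO1) had 125 and 121 CPM in MLL-ENL ∆YEATS against 107 and 131 CPM in MLL-ENL (log2 fold change 0.05 ± 0.14, SE, adjusted p = 0.832). The Kat7 log2 fold change was -0.09 without MLL-ENL replicate 1 and 0.21 without replicate 2. Kat8 (MOF), which acetylates histone H4, had 16.6 and 15.9 CPM in MLL-ENL ∆YEATS against 18.7 and 16.6 CPM in MLL-ENL. Kat5 (TIP60), the enzyme of the NuA4 complex, had 38.0 and 37.1 CPM in MLL-ENL ∆YEATS against 44.3 and 44.2 CPM in MLL-ENL; the groups did not overlap, with a log2 fold change of -0.24 ± 0.11 (SE, adjusted p = 0.189). Kat5 and Kat7 had the highest levels per length among the writers and Kat6b the lowest. Exons of Rnaseh2c on the opposite strand overlap 12.1% of the exonic length of Kat5.

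The remaining writers had positive fold changes that did not pass the test. Kat2a (GCN5), the acetyltransferase of SAGA and ATAC, had 98.2 and 96.3 CPM in MLL-ENL ∆YEATS and 78.4 and 71.6 CPM in MLL-ENL. All of its MLL-ENL ∆YEATS values lay above the MLL-ENL values, and its log2 fold change was 0.37 ± 0.11 (SE, adjusted p = 0.078). Kat2b (PCAF), its paralog, had 49.5 and 47.2 CPM in MLL-ENL ∆YEATS against 27.9 and 43.0 CPM in MLL-ENL, and its log2 fold change was 0.17 without MLL-ENL replicate 1 and 0.79 without replicate 2. Ep300, a coactivator that acetylates many histone sites at enhancers, had 190 and 189 CPM in MLL-ENL ∆YEATS and 98.3 and 178 CPM in MLL-ENL. The MLL-ENL ∆YEATS libraries were higher, but most of the difference lay in MLL-ENL replicate 1: the Ep300 log2 fold change was 0.45 ± 0.28 (SE, adjusted p = 0.316), 0.09 without MLL-ENL replicate 1 and 0.95 without replicate 2. Its paralog Crebbp had 74.2 and 77.2 CPM in MLL-ENL ∆YEATS against 55.8 and 74.5 CPM in MLL-ENL, with overlapping groups and an adjusted p of 0.415; the log2 fold change was 0.021 without MLL-ENL replicate 1 and 0.44 without replicate 2.

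None of the readers was called. The nearest was Dpf2, the double PHD finger subunit of the BAF remodeler, with 64.4 and 63.3 CPM in MLL-ENL ∆YEATS and 45.9 and 52.3 CPM in MLL-ENL, without overlap (log2 fold change 0.38, adjusted p = 0.0905). The BRPF scaffolds, which pair MYST enzymes with their histone targets, pointed in different directions. Brpf1 had 140 and 129 CPM in MLL-ENL ∆YEATS against 89.4 and 113 CPM in MLL-ENL (adjusted p = 0.128). Brpf3 had 40.1 and 40.9 CPM in MLL-ENL ∆YEATS against 20.6 and 37.4 CPM in MLL-ENL (adjusted p = 0.297), with a log2 fold change of 0.11 without MLL-ENL replicate 1 and 0.98 without replicate 2. Brd1 (BRPF2) had 126 and 124 CPM in MLL-ENL ∆YEATS against 149 and 153 CPM in MLL-ENL, without overlap but with an adjusted p of 0.129.

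The BET proteins, which bind acetylated histones and support transcription elongation, were not called. Brd2 had 288 and 271 CPM in MLL-ENL ∆YEATS and 261 and 278 CPM in MLL-ENL, with overlap (log2 fold change 0.05 ± 0.11, SE, adjusted p = 0.767). Brd3 had 118 and 117 CPM in MLL-ENL ∆YEATS and 162 and 109 CPM in MLL-ENL, where the MLL-ENL libraries lay on both sides of the MLL-ENL ∆YEATS libraries. The Brd3 log2 fold change was -0.21, 0.10 without MLL-ENL replicate 1 and -0.46 without replicate 2. Of the other SWI/SNF readers, Brd7 had 169 and 162 CPM in MLL-ENL ∆YEATS against 158 and 138 CPM in MLL-ENL (log2 fold change 0.16 ± 0.12, SE, adjusted p = 0.406). Brd9 had 55.2 and 58.7 CPM in MLL-ENL ∆YEATS against 59.0 and 49.8 CPM in MLL-ENL, with a log2 fold change of 0.07 that was 0.19 without MLL-ENL replicate 1 and -0.050 without replicate 2. Brd8, a NuA4 subunit, had 116 and 111 CPM in MLL-ENL ∆YEATS against 81.4 and 108 CPM in MLL-ENL.

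Yeats2 and Yeats4 have a YEATS domain of their own, the type of domain that the mutant fusion lacks. Their RNA levels do not show what that domain does in the fusion. Yeats2, the reader of the ATAC complex, had 54.3 and 48.6 CPM in MLL-ENL ∆YEATS and 32.9 and 57.9 CPM in MLL-ENL, with overlap. Its log2 fold change was 0.18 with all libraries, -0.17 without MLL-ENL replicate 1 and 0.64 without replicate 2. Yeats4 (GAS41), shared by the NuA4 and SRCAP complexes, had 56.8 and 57.2 CPM in MLL-ENL ∆YEATS and 73.8 and 58.2 CPM in MLL-ENL. The Yeats4 groups did not overlap, with an adjusted p of 0.375. Cdyl, a chromodomain protein that hydrates crotonyl-CoA and so lowers histone crotonylation, had 21.5 and 21.3 CPM in MLL-ENL ∆YEATS and 21.02 and 31.0 CPM in MLL-ENL. It was the reader with the lowest level per length, and its groups overlapped (log2 fold change -0.28 ± 0.20, SE, adjusted p = 0.388). The Cdyl value was -0.54 without MLL-ENL replicate 1 and 0.026 without replicate 2. Mllt1, which encodes ENL, and its paralog Mllt3 (AF9) are outside the member list and were not called by edgeR's quasi-likelihood test. Mllt1 had 64.0 and 59.3 CPM in MLL-ENL ∆YEATS against 67.7 and 62.1 CPM in MLL-ENL (adjusted p = 0.692). Mllt3 had 7.70 and 7.92 CPM in MLL-ENL ∆YEATS against 7.99 and 8.07 CPM in MLL-ENL (adjusted p = 0.866). No source used here says whether reads of the fusion transcripts were counted to Mllt1.

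Among the erasers, the class IIa deacetylases held called changes in opposite directions. These enzymes have weak catalytic activity of their own and act as signal-dependent corepressors of MEF2 factors. Hdac4 (chr1:91928779-92195699) had 60.1 and 59.9 CPM in MLL-ENL ∆YEATS and 35.03 and 39.7 CPM in MLL-ENL. Both MLL-ENL ∆YEATS libraries were higher without overlap, at 60.0 ± 0.165 CPM against 37.4 ± 3.29 CPM in MLL-ENL (SD, n = 2 each), a log2 fold change of 0.68 ± 0.12 (SE, adjusted p = 0.0176). Hdac7 (chr15:97792664-97844502) had 18.3 and 17.0 CPM in MLL-ENL ∆YEATS and 31.6 and 33.1 CPM in MLL-ENL. Both MLL-ENL ∆YEATS libraries were lower without overlap, at 17.7 ± 0.915 CPM against 32.3 ± 1.10 CPM in MLL-ENL (SD, n = 2 each), a log2 fold change of -0.87 ± 0.12 (SE, adjusted p = 0.00777). Summed over the 4 class IIa genes, the FPKM were 58.8 and 49.99 in MLL-ENL ∆YEATS and 39.2 and 59.5 in MLL-ENL, and overlapped. Hdac5 had 65.6 and 62.8 CPM in MLL-ENL ∆YEATS against 67.3 and 65.7 CPM in MLL-ENL, and Hdac9 was low in all libraries, at 2.25 and 1.95 CPM in MLL-ENL ∆YEATS against 1.68 and 1.42 CPM in MLL-ENL (log2 fold change 0.44 ± 0.23, SE, adjusted p = 0.253).

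The Hdac4 call has limits of counting. Its exons overlap those of an antisense noncoding gene, Gm26720, over 22.4% of their length, and no source used here says whether reads were counted by strand. The Hdac4 call was lost in the limma fit on log2(FPKM + 1), where no eraser was called higher. Without a filter, that fit called neither Hdac4 nor Hdac7. Leaving out either MLL-ENL ∆YEATS library ended the Hdac4 call, with adjusted p-values of 0.22 without replicate 1 and 0.215 without replicate 2, and leaving out MLL-ENL ∆YEATS replicate 2 ended that of Hdac7 (adjusted p = 0.102). Over all alternatives the adjusted p ran between 4.54e-11 and 0.22 for Hdac4 and between 3.05e-10 and 0.102 for Hdac7.

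Of the class I enzymes, Hdac1, Hdac2 and Hdac3 are catalytic cores of the NuRD, SIN3 and NCOR complexes and were not called. The call in this class was Hdac8, which works outside those complexes and deacetylates cohesin. Hdac8 (chrX:102284639-102505359) had 7.36 and 7.26 CPM in MLL-ENL ∆YEATS and 12.1 and 10.5 CPM in MLL-ENL. It was lower in both MLL-ENL ∆YEATS libraries without overlap, at 7.31 ± 0.0696 CPM against 11.3 ± 1.11 CPM in MLL-ENL (SD, n = 2 each), a log2 fold change of -0.63 ± 0.15 (SE, adjusted p = 0.0421). The Hdac8 call was lost with DESeq2 (adjusted p = 0.059), with no filter on low counts (adjusted p = 0.0518) and without either MLL-ENL ∆YEATS library (adjusted p = 0.347 without replicate 1 and 0.365 without replicate 2), and its adjusted p ran between 3.54e-06 and 0.365 over all alternatives. The Hdac8 call was lost as well in the unfiltered limma fit on log2(FPKM + 1), where no member was called. Hdac1 had 171 and 169 CPM in MLL-ENL ∆YEATS against 174 and 197 CPM in MLL-ENL, without overlap (log2 fold change -0.12 ± 0.11, SE, adjusted p = 0.498). Hdac2, its partner in the same complexes, had 134 and 136 CPM in MLL-ENL ∆YEATS against 127 and 132 CPM in MLL-ENL. Hdac3 had 59.1 and 63.7 CPM in MLL-ENL ∆YEATS against 66.5 and 59.4 CPM in MLL-ENL, with overlap; its log2 fold change of -0.04 was 0.046 without MLL-ENL replicate 1 and -0.11 without replicate 2. Its scaffold Ncor1 had 334 and 329 CPM in MLL-ENL ∆YEATS against 347 and 434 CPM in MLL-ENL (log2 fold change -0.24 ± 0.14, SE, adjusted p = 0.302).

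Of the class IIb and class IV enzymes, Hdac6, a tubulin deacetylase, had 28.2 and 27.7 CPM in MLL-ENL ∆YEATS and 24.2 and 27.1 CPM in MLL-ENL. Hdac10, a polyamine deacetylase, had 8.04 and 8.86 CPM in MLL-ENL ∆YEATS and 9.22 and 7.22 CPM in MLL-ENL, with a log2 fold change of 0.04 that was 0.23 without MLL-ENL replicate 1 and -0.13 without replicate 2. Hdac11, which removes long fatty acyl groups, had 1.70 and 1.95 CPM in MLL-ENL ∆YEATS and 1.61 and 1.46 CPM in MLL-ENL. None passed the test, and the groups overlapped for Hdac10.

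The sirtuin called was Sirt7 (chr11:120618372-120625240), a nuclear enzyme of the nucleolus that deacetylates histone H3. Sirt7 had 51.6 and 49.1 CPM in MLL-ENL ∆YEATS and 101 and 75.8 CPM in MLL-ENL. The MLL-ENL ∆YEATS libraries were both lower, at 50.3 ± 1.74 CPM against 88.6 ± 18.1 CPM in MLL-ENL (SD, n = 2 each), a log2 fold change of -0.82 ± 0.17 (SE, adjusted p = 0.0287). The value moved with the MLL-ENL library, to -0.59 without replicate 1 and -1.01 without replicate 2, and the call was lost without MLL-ENL ∆YEATS replicate 1 (adjusted p = 0.099) or 2 (adjusted p = 0.157). Its adjusted p ran between 4.54e-14 and 0.157 over all alternatives. The Sirt7 call was lost as well in the unfiltered limma fit on log2(FPKM + 1), where no member was called. Exons of Mafg on the same strand share 124 bases with Sirt7.

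Sirt3, the main mitochondrial deacetylase, came closest of the uncalled members. It had 6.03 and 6.53 CPM in MLL-ENL ∆YEATS and 8.92 and 9.74 CPM in MLL-ENL, without overlap (log2 fold change -0.57 ± 0.15, SE, adjusted p = 0.0563), and passed at an adjusted p of 0.0271 once the trend with gene length was removed; over all alternatives the adjusted p ran between 4.21e-05 and 0.543. Its exons overlap those of Ric8a and Psmd13 on the opposite strand. The mitochondrial Sirt5, a desuccinylase, had 6.95 and 7.01 CPM in MLL-ENL ∆YEATS against 5.27 and 6.22 CPM in MLL-ENL, and Sirt4 had 2.72 and 3.42 CPM in MLL-ENL ∆YEATS against 2.99 and 3.81 CPM in MLL-ENL. The Sirt4 log2 fold change of -0.15 was -0.31 without MLL-ENL replicate 1 and 0.039 without replicate 2. Sirt1, a nuclear deacetylase of histones and p53, had 63.5 and 69.0 CPM in MLL-ENL ∆YEATS against 49.3 and 62.1 CPM in MLL-ENL. Sirt6, which acts at chromatin and telomeres, had 22.0 and 22.1 CPM in MLL-ENL ∆YEATS against 24.7 and 22.5 CPM in MLL-ENL, and the mostly cytoplasmic Sirt2 had 44.4 and 45.6 CPM in MLL-ENL ∆YEATS against 35.5 and 43.4 CPM in MLL-ENL. None of these 5 was called.

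**Figure D3:**
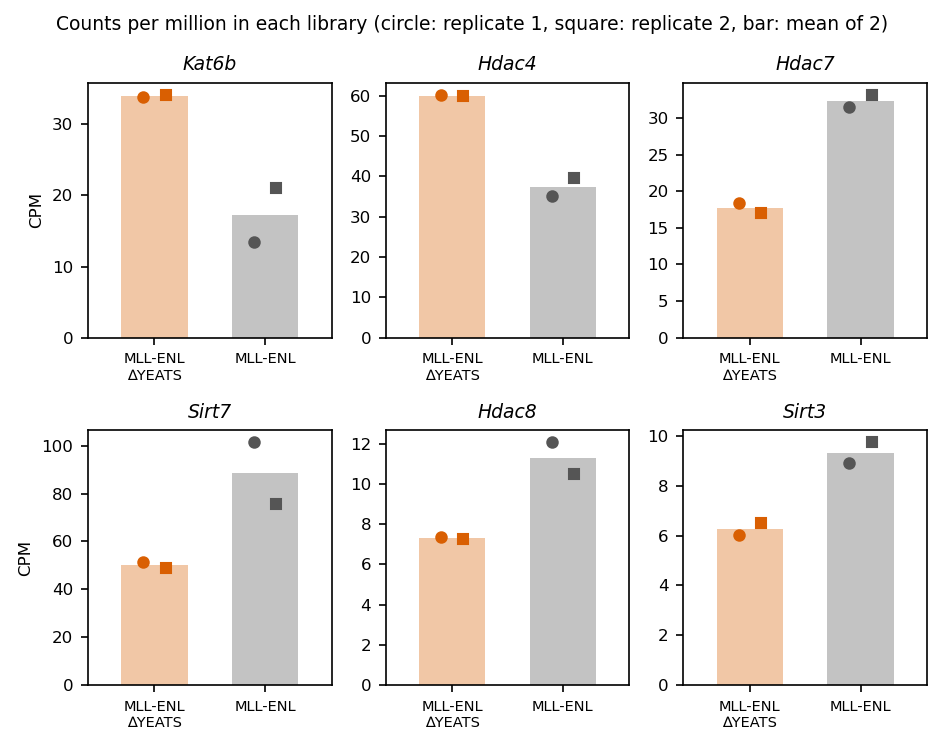
CPM of the called members and of Sirt3, which narrowly missed the threshold, in each library, MLL-ENL ∆YEATS on the left and MLL-ENL on the right of each panel, with axes from 0. Bars are means of 2 libraries, circles replicate 1 and squares replicate 2; Kat6b and Hdac4 lie higher in MLL-ENL ∆YEATS and Hdac7, Sirt7 and Hdac8 lower, and for Kat6b and Sirt7 the MLL-ENL libraries are the farthest apart.

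The difference within the MLL-ENL pair followed gene length. Over the 40 members, exonic length and the log2 ratio of MLL-ENL replicate 1 over replicate 2 had a Spearman rho of -0.42, and over 13165 tested genes -0.39; the points share their libraries, and the values describe them only. Replicate 1 was below replicate 2 for 25 of 40 members, and for writers the median log2 ratio was -0.42. Members were long, with a median exonic length of 5895 bases against 4059 bases over all genes tested. The fold change between the lines also went with length over the members, with a rho of 0.44. Removing the trend with length left the 5 calls in place and added Sirt3 and Kat2a, with 21.9% of all genes then called.

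**Figure D4:**
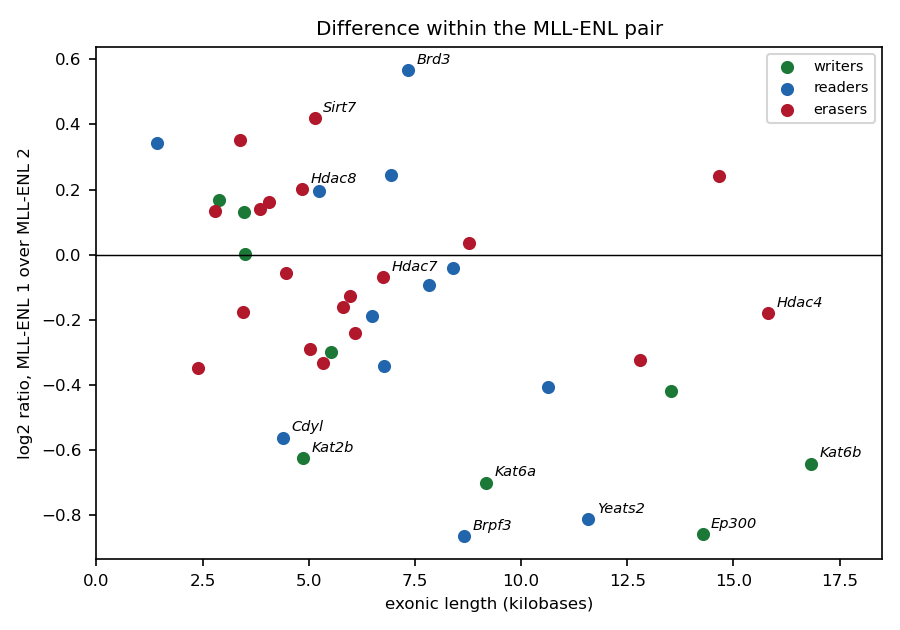
Log2 ratio of MLL-ENL replicate 1 over replicate 2 against exonic length in kilobases, 1 point per gene, coloured by class. Long genes such as Ep300, Kat6b and Yeats2 lie below 0, while Sirt7 and Brd3 lie above it.

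The relation of counts to FPKM gave a second readout, since counts divided by FPKM imply the effective length over which reads of a gene were spread, and a gene read from shorter transcripts has a shorter one. For Kat6b this length was 5373 and 5489 bases in MLL-ENL ∆YEATS and 6466 and 6507 bases in MLL-ENL, without overlap. For Hdac4 it was 3356 and 3638 bases in MLL-ENL ∆YEATS and 4400 and 3796 bases in MLL-ENL, again lower in MLL-ENL ∆YEATS. The log2 ratio of FPKM was larger than the log2 fold change of counts, 1.28 against 0.98 for Kat6b and 0.95 against 0.68 for Hdac4. Length is not the whole of this gap, since FPKM carry no TMM factor. Kat2a, with a log2 ratio of effective length of -0.0018, had 0.43 in FPKM against 0.37 in counts. Of the paralogs of Kat6b and Hdac4, Kat6a had 8810 and 8812 bases in MLL-ENL ∆YEATS against 8815 and 8805 bases in MLL-ENL. Hdac5 varied between libraries of 1 group, with 1912 and 2284 bases in MLL-ENL ∆YEATS against 2792 and 1674 bases in MLL-ENL. Of 38 members with at least 1 FPKM in every library, 16 had groups that did not overlap in effective length, 42.1%, against 28.8% of 10395 genes. A difference of at least 0.2 on the log2 scale was found for 3 members (Kat6b, Hdac4 and Sirt4), 7.89%, against 5.91% of those genes. These lengths rest on the isoform shares estimated by RSEM, which have no error of their own in the files, and were not tested.

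The partners of the members were described from 5 lists of 124 genes, of which 120 passed the filter on low counts. Of these, 7 rose and 13 fell, 16.7%, close to the 16.9% of all genes. Among 35 other subunits of acetyltransferase complexes, 1 rose, Jade2, a scaffold of the Kat7 complex, with 20.0 and 20.3 CPM in MLL-ENL ∆YEATS against 14.8 and 13.8 CPM in MLL-ENL (adjusted p = 0.044). The Jade2 call was lost in 11 of 17 alternatives, among them DESeq2 (adjusted p = 0.0888) and removal of the length trend (adjusted p = 0.12), and its adjusted p ran between 8.35e-06 and 0.491. Among 8 other acetyltransferases, 2 rose. Clock, the circadian factor, had 45.9 and 45.8 CPM in MLL-ENL ∆YEATS against 16.3 and 22.6 CPM in MLL-ENL (log2 fold change 1.23, adjusted p = 0.0101). Hat1, which acetylates new histone H4, had 114 and 116 CPM in MLL-ENL ∆YEATS against 80.0 and 83.9 CPM in MLL-ENL (log2 fold change 0.49, adjusted p = 0.0327), a call lost in 6 of 17 alternatives, among them without either MLL-ENL ∆YEATS library (adjusted p = 0.507 without replicate 1 and 0.55 without replicate 2). Over all alternatives its adjusted p ran between 5.97e-10 and 0.55.

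Of 29 tested genes on the list of other acyl readers, 1 rose and 5 fell. The list goes by gene name, and binding of these proteins to acyl marks was not measured. Smarca2 (BRM), a bromodomain ATPase of BAF, had 24.2 and 22.1 CPM in MLL-ENL ∆YEATS and 137 and 110 CPM in MLL-ENL (log2 fold change -2.42, adjusted p = 0.000771). Zmynd11, a chromatin reader tied to elongation control, had 13.0 and 13.3 CPM in MLL-ENL ∆YEATS and 42.6 and 45.1 CPM in MLL-ENL (log2 fold change -1.74, adjusted p = 0.000869). Baz2b, a bromodomain protein, had 367 and 373 CPM in MLL-ENL ∆YEATS and 167 and 218 CPM in MLL-ENL (log2 fold change 0.94, adjusted p = 0.0145). The groups did not overlap for any of these 3. Sp110, Trim24 and Sp100 also passed as lower, with calls lost in 3, 6 and 8 of 17 alternatives, in each case including the fits without either MLL-ENL ∆YEATS library; their adjusted p reached 0.243 for Sp110, 0.455 for Trim24 and 0.653 for Sp100.

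Among 39 subunits of deacetylase complexes, 3 rose (Rcor2, Mier2 and Tbl1xr1) and 3 fell (Trerf1, Chd3 and Sap30l). Trerf1, a partner of the MiDAC deacetylase complex, had 4.46 and 4.40 CPM in MLL-ENL ∆YEATS and 30.2 and 29.6 CPM in MLL-ENL (log2 fold change -2.75, adjusted p = 0.000358). Chd3, a NuRD remodeler, had 3.37 and 2.41 CPM in MLL-ENL ∆YEATS and 9.15 and 9.71 CPM in MLL-ENL (log2 fold change -1.70, adjusted p = 0.00596). Rcor2, a scaffold of the CoREST complex, had 6.30 and 4.96 CPM in MLL-ENL ∆YEATS and 2.73 and 2.88 CPM in MLL-ENL (log2 fold change 1.00, adjusted p = 0.0279). Mier2, a scaffold for Hdac1 and Hdac2, had 22.7 and 21.6 CPM in MLL-ENL ∆YEATS and 12.2 and 12.3 CPM in MLL-ENL (log2 fold change 0.85, adjusted p = 0.00812). The groups did not overlap for any of these 4. The Rcor2 call was lost without MLL-ENL ∆YEATS replicate 1 (adjusted p = 0.263) and in the 3 fits on FPKM, that of Chd3 in the same 3 fits, and that of Mier2 without MLL-ENL ∆YEATS replicate 1 (adjusted p = 0.0744) and in the unfiltered FPKM fit. Over all alternatives the adjusted p reached 0.263 for Rcor2, 0.194 for Chd3 and 0.0744 for Mier2. The calls of Tbl1xr1 and Sap30l were lost in 7 and 5 of 17 alternatives.

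The partner list of genes of acetyl-CoA metabolism, which writers draw on, and NAD metabolism, which sirtuins draw on, had the largest share called of the 5 lists. None of 9 tested rose and 5 fell, 55.6%, against 9.84% of all genes lower. The median log2 fold change was -0.77. This short list was chosen with earlier results of these data known, so its share cannot be read as an enrichment. Acss2, which makes nuclear and cytosolic acetyl-CoA from acetate, had 13.0 and 12.9 CPM in MLL-ENL ∆YEATS and 49.8 and 51.2 CPM in MLL-ENL (log2 fold change -1.96, adjusted p = 0.000558). Its mitochondrial relative Acss1 had 1.67 and 1.47 CPM in MLL-ENL ∆YEATS and 11.8 and 10.5 CPM in MLL-ENL (log2 fold change -2.83, adjusted p = 0.000811). Acly, which cleaves citrate to acetyl-CoA, had 385 and 373 CPM in MLL-ENL ∆YEATS and 583 and 712 CPM in MLL-ENL (log2 fold change -0.77, adjusted p = 0.0175). In each of these 3 genes both MLL-ENL ∆YEATS libraries were below both MLL-ENL libraries.

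Slc25a1, the carrier that exports citrate from mitochondria, had 89.8 and 87.9 CPM in MLL-ENL ∆YEATS and 218 and 181 CPM in MLL-ENL (log2 fold change -1.17, adjusted p = 0.00449). Nmnat3, a mitochondrial NAD synthase, had 8.14 and 7.82 CPM in MLL-ENL ∆YEATS and 13.9 and 15.0 CPM in MLL-ENL (log2 fold change -0.86, adjusted p = 0.0119). The genes not called were Pdha1, a subunit of pyruvate dehydrogenase, at 203 and 209 CPM in MLL-ENL ∆YEATS against 222 and 204 CPM in MLL-ENL, Nampt, the first step of NAD salvage, at 118 and 120 CPM in MLL-ENL ∆YEATS against 90.9 and 103 CPM in MLL-ENL, Nmnat1 and Parp1. The calls of Acss1, Acss2 and Slc25a1 held under every alternative run, while those of Acly and Nmnat3 were lost without MLL-ENL ∆YEATS replicate 1 (adjusted p = 0.17 and 0.0775) or 2 (adjusted p = 0.218 and 0.107). Over all alternatives the adjusted p ran between 4.77e-18 and 0.218 for Acly and between 1.03e-08 and 0.107 for Nmnat3. RNA levels do not give the amounts of acetyl-CoA, NAD or histone acylation, which were not measured.

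**Figure D5:**
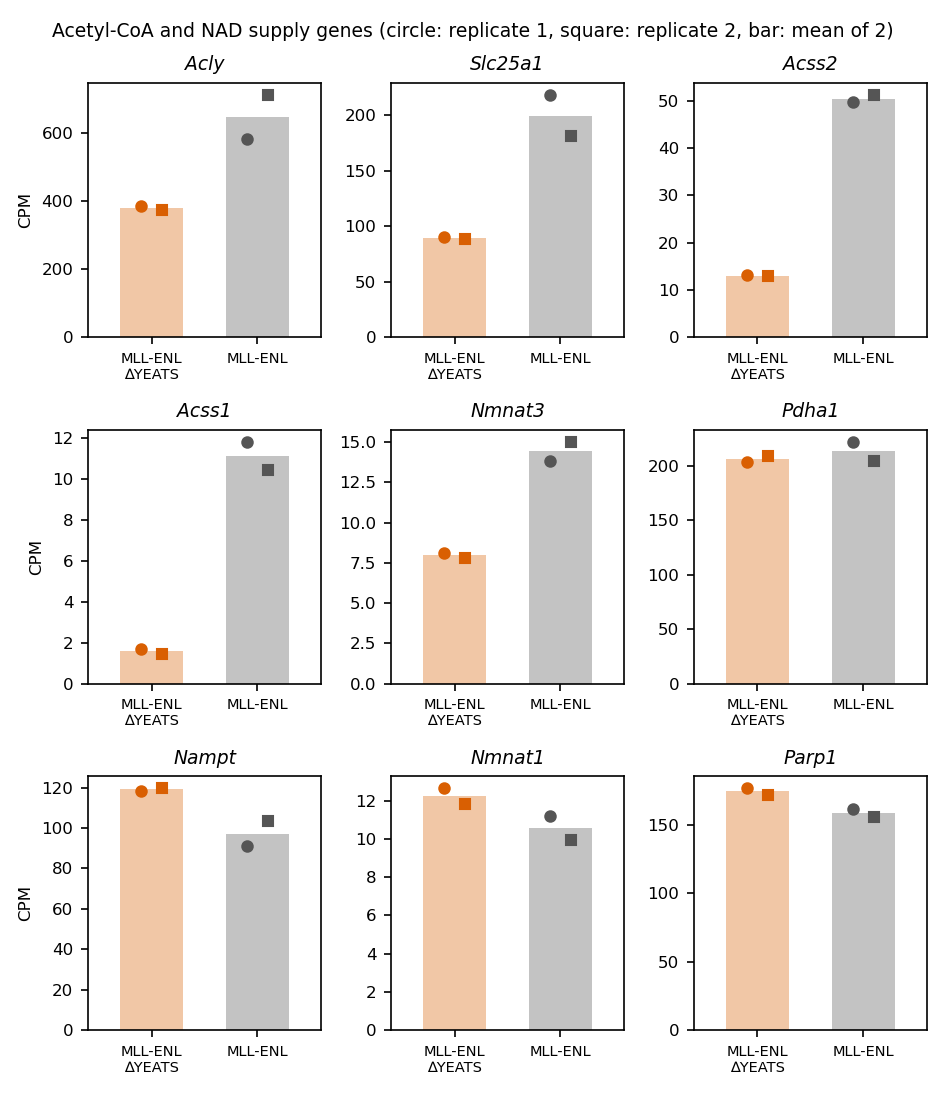
CPM of genes of acetyl-CoA and NAD metabolism in each library, MLL-ENL ∆YEATS on the left and MLL-ENL on the right of each panel, with bars for means of 2 libraries, circles for replicate 1 and squares for replicate 2. Acss1, Acss2, Slc25a1, Acly and Nmnat3 lie lower in both MLL-ENL ∆YEATS libraries.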

How the data were processed

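Polyadenylated RNA of the 4 libraries was prepared with Lexogen poly(A) selection and a Swift library kit, per the labels' protocols. Per the submitters' processing notes, the tools were STAR 2.7.8a, RSEM 1.3.3, cutadapt 2.3 and FastQC 0.11.8, with the mouse build GRCm38 (mm10). For settings, annotation release and strand setting: not given in the sources used here. The authors deposited RSEM expected counts per gene, which were whole numbers and were used as they stood, and FPKM values per gene normalized for length and depth.

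The expected counts were tested with edgeR 4.0.16 (R 4.3.3): filterByExpr (minimum count 10), TMM scaling, quasi-likelihood fit over all 4 libraries, Benjamini-Hochberg adjustment over all 13245 tested genes, threshold 0.05. The fit had 2 residual degrees of freedom. CPM are TMM-scaled; fold changes are on the log2 scale. Gene coordinates and exon overlaps come from GENCODE M21, and promoters from RefSeq. The script was tested on simulated data. Alternatives were RLE, upper quartile and totals-only scaling, other filters, a replicate block, each library left out, removal of a length trend (lowess, span 0.3), edgeR's newer quasi-likelihood method, DESeq2 1.42.0, limma-voom, and limma 3.58.1 on log2(FPKM + 1) and log2(FPKM + 0.1). Every member is named, with full values for those called, the 2 highest and the 1 lowest of each class in FPKM, and those uncalled whose fold change reached 0.5 in size on the log2 scale; of each partner list, the 2 called genes with the largest change in each direction are named. Some lineage markers are not reported here. The members and lists were chosen with earlier results of these data known. Total counts per library lay between 27812855 and 28814798. The members with fewest counts were Hdac9, Hdac11 and Sirt4, whose values carry the largest counting error.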

Additional observations from a re-analysis of the deposited data

How the results depend on the processing

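Over the settings that used all 4 libraries, 489 of 517 comparisons of a member with its main value kept direction and side of the threshold, 13 lost the call, 5 gained one and 10 changed sign, none of them called. These were Brd2 (-0.029) and Brd9 (-0.0063) with the length trend removed, Hdac3 (0.019) and Hdac5 (0.0022) with libraries scaled by totals alone, and Hdac3 (0.032) and Hdac5 (0.048 with a pseudocount of 1 and 0.051 with 0.1) in the FPKM fits. With 1 library left out, 105 of 160 were kept, 7 lost the call, 36 gained one and 12 changed sign, over 9 members (log2 fold changes without MLL-ENL replicate 1 and without replicate 2 were -0.10 and 0.60 for Kat6a, -0.092 and 0.21 for Kat7, 0.10 and -0.46 for Brd3, and -0.17 and 0.64 for Yeats2; over all 4 such fits they ran between -0.050 and 0.19 for Brd9, -0.54 and 0.026 for Cdyl, -0.11 and 0.046 for Hdac3, -0.13 and 0.23 for Hdac10, and -0.32 and 0.039 for Sirt4). Of 22 partners named or called, 240 of 286 comparisons with all 4 libraries were kept, 45 lost the call and 1 changed sign (Mllt3 at 0.012 with totals-only scaling); with 1 library left out, 67 of 88 were kept, 20 lost the call and 1 gained one. In those fits the lone library is assumed to vary like the other group. Members called ranged between 1 and 28, against 5 with all libraries: 2 without MLL-ENL ∆YEATS replicate 1 and 1 without replicate 2, where 10.3% and 10.2% of all genes were called, 22 without MLL-ENL replicate 1 and 28 without replicate 2, where 54.7% and 66.5% were. Genes called ranged between 1392 and 9099, against 2235. Called writers ranged between 1 and 9, readers between 0 and 9, erasers between 0 and 10 and partners between 9 and 95. Medians of log2 fold changes ranged between 0.021 and 0.44 for writers, 0.083 and 0.14 for readers, and -0.038 and 0.035 for erasers.

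Over genes, the deviations of same-numbered libraries from their group means had a correlation of -0.0677. With 2 libraries a group, replicate 2 mirrors replicate 1, so this single value cannot tell whether the numbers pair the libraries. With the replicate number as a block, 8 members were called, of them 3 writers (Kat6b, Ep300 and Kat2b) and 1 reader (Brpf3), with 23.7% of all genes called. With libraries scaled by totals alone, 0 writers were called, and the medians were 0.17 for readers and 0.019 for erasers. At least 5 CPM in 2 libraries left 1350 genes and 0 writers called. Removing the length trend gave 2 writers and a readers' median of 0.057. Limma on log2(FPKM + 1) called 1466 genes, 3 members, 2 erasers and 12 partners; with a pseudocount of 0.1 it called 3 members, 0 writers and 12 partners, with a writers' median of 0.41. Without a filter it called 674 genes, 0 members, 0 writers, 0 erasers and 4 partners. In all 3 FPKM fits the medians were 0.18 for readers, and for erasers 0.048 with a pseudocount of 1 and 0.051 with 0.1. The cause of these shifts was not tested.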
